A study of Mus musculus with 9 samples.

Results

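The genes of cholesterol and fatty acid synthesis were examined in cultured primary mouse lung endothelial cells (MLEC) with and without JNK. The set holds 36 genes, listed by symbol, and 35 of them were found among the 33353 gene entries that carry values for single libraries. *Mvd* was not analysed here. By role they are 17 sterol enzymes, 5 regulators of the sterol regulatory element binding proteins (SREBP), 5 genes of cholesterol transport and of the liver X receptor (LXR), and 9 enzymes of fatty acid synthesis. The measure is FPKM, which counts sequenced fragments relative to transcript length and to the mapped total of the library, so levels of different genes are on a per-length scale.

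RNA-seq was carried out on 9 libraries in 3 groups of 3, and each library came from a separate isolation of cells from the pooled lungs of several C57BL/6J mice that were 10 to 12 weeks old. E3KO cells were Cdh5-Cre+ Jnk1LoxP/LoxP Jnk2LoxP/LoxP Jnk3-/-. ECtrl cells were Cdh5-Cre+ Jnk1+/+ Jnk2+/+ Jnk3-/-, and EfCtrl cells were Cdh5-Cre- Jnk1LoxP/LoxP Jnk2LoxP/LoxP Jnk3-/-. All groups therefore lacked JNK3, and the control groups differed from each other both in Cre and in the LoxP alleles. Cre was driven by the promoter of *Cdh5*, which is active in vascular endothelium, and cells were selected with antibody to ICAM2 and grown in medium with serum, so the levels are those of cells in culture.

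Cells make cholesterol from acetyl-CoA through mevalonate, squalene and lanosterol, and they make fatty acids from the same precursor. When membranes are low in sterol, SCAP carries SREBP proteins from the endoplasmic reticulum to the Golgi, where they are cut and released to activate the genes of both routes. INSIG proteins hold SCAP back when sterol is plentiful, and LXR responds to oxidised sterols by raising cholesterol efflux. Endothelial cells take up cholesterol from lipoproteins and also synthesise it.

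The libraries were checked before the genes were compared. Endothelial markers were present in every library, with 8 of 8 found and a summed FPKM of 2876 to 3577 in controls and 3560 to 3969 in E3KO. Among them limma called only *Emcn*, higher by 0.63 (adjusted p = 0.026), and *Icam2* and *Tie1* had differences of -0.24 and -0.31 that did not pass. *Mapk9* (JNK2) was lower in all E3KO libraries (27.6, 35.1 and 20.7 FPKM) than in the controls (42.7 to 50.9), with a log2 difference of -0.75 from the mean of the control groups and an adjusted p of 0.0359 by limma. *Mapk8* (JNK1) was 8.77 and 4.65 FPKM in E3KO replicates 2 and 3 and 14.05 to 17.9 in controls. With all 9 libraries its log2 difference from the mean of the control groups was -0.67 ± 0.35 (SE; limma adjusted p = 0.285), so it did not pass. The library labelled E3KO replicate 1 had 20.7 FPKM of *Mapk8*, above every control. Its lung epithelial markers summed to 49.5 FPKM, mostly *Scgb1a1*, against 0.105 to 2.03 in the other libraries. Smooth muscle and fibroblast markers summed to 12.0 to 78.2 FPKM in controls and 10.1 to 22.9 in E3KO. In the library labelled E3KO replicate 1 the FPKM values of all entries summed to 9841812, against 656089 to 908401 in the other 8 libraries, with 96.4% of the sum in 10 entries. Without entries that averaged 5000 FPKM or more the 9 libraries summed to between 388537 and 433172. The counts of genes called in E3KO, and the differences of some genes, are given with and without this library. Other differences that it moved, such as that of *Acaca*, are given only with it.

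RefSeq promoter windows (GRCm38.p6) were available for 27 of the 35 genes, and the 250 bases before the annotated start were searched on both strands. *Cyp51* and *Insig1* are shown because they were the genes called below, and *Idi1* because its difference was the next largest. *Hmgcs1* is shown because it alone matched the exact consensus searched for as the sterol regulatory element. Capitals mark a CCAAT box (CCAAT, or ATTGG when it lies on the other strand), an E-box (CACGTG) or the sterol regulatory element consensus TCACNCCAC. The windows were chr5:4104698-4104947 on the minus strand for *Cyp51*, chr5:28071162-28071411 on the plus strand for *Insig1*, chr13:8885356-8885605 on the plus strand for *Idi1* and chr13:119690101-119690350 on the plus strand for *Hmgcs1*, and each sequence is written 5′ to 3′ towards the gene.
Cyp51: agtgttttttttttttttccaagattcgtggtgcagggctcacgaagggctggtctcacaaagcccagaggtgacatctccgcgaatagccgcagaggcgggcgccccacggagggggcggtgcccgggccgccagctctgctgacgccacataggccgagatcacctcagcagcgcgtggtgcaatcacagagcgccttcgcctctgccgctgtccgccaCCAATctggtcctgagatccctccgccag
Insig1: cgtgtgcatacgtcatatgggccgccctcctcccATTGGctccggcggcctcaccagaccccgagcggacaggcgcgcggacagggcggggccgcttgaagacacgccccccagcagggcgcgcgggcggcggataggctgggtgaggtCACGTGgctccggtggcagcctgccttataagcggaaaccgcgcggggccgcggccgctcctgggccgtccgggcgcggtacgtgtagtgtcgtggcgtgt
Idi1: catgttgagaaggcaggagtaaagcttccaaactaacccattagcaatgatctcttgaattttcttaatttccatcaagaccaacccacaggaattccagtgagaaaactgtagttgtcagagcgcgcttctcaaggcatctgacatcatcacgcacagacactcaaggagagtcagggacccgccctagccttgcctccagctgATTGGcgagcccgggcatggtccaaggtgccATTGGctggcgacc
Hmgcs1: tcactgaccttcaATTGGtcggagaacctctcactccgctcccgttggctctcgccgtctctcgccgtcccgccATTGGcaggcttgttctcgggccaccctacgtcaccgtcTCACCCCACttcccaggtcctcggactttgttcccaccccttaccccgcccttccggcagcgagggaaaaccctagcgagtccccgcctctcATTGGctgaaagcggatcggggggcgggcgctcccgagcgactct

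The CCAAT box, a site of the factor NF-Y that often lies beside SREBP sites, was found in 20 of the 35 windows of these genes, which belong to 19 of the 27 genes, and in 33.9% of all 32851 windows. In *Cyp51* its first base lay 29 bases before the start. *Idi1* held it at 45 and 14 bases before the start and *Insig1* at 216. These starts are those of RefSeq, and the boxes of *Cyp51* and *Idi1* lie inside the deposited loci given below. *Hmgcs1*, the synthase that precedes mevalonate formation, held 3 CCAAT boxes and a sterol regulatory element beginning 137 bases before the start. The exact consensus was in 1.05% of all windows and in no other of the 27. Variant forms of the element were not searched for, so their absence is not shown. The E-box was in the windows of 6 genes (*Hsd17b7*, *Sc5d*, *Dhcr7*, *Scap*, *Insig1* and *Abca1*) and in 6.02% of all windows. An LXR element, taken as AGGTCA repeated after 4 bases, was in 0.0152% of all windows and in none of the 27. These are letter matches and carry no measure of binding. No motif overlapped another in the windows shown.

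To ask how these genes stand after loss of endothelial JNK, E3KO was compared with each control group and with the mean of both. Of 33 genes tested, 2 passed the test (6.06%), close to the 4.8% of all genes that did so. *Cyp51*, the lanosterol demethylase, and *Insig1*, the sterol-regulated brake on SCAP, were higher in E3KO than in the mean of the controls, by 1.13 ± 0.25 (SE) and 0.56 ± 0.12 (SE) on the log2(FPKM + 1) scale. The added 1 shrinks differences where FPKM is low. *Sqle* and *Fads1* were also higher in all 3 E3KO libraries than in all 6 controls, but did not pass the test.

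The test required an average of at least 2 FPKM in 1 or more groups, and 33 genes met this, each of them in a control group. *Mvk* and *Acss2* did not reach it. A gene is called here where the Benjamini-Hochberg adjusted p of limma, over all 10605 genes tested, is under 0.05. Against the mean of the controls 2 of 33 were called, both higher, where 4.8% of all genes were called (1.54% higher and 3.26% lower). At an unadjusted p under 0.05, 9 were higher and 0 lower, against 6.93% and 16.9% of all genes. The 9 were *Cyp51*, *Insig1*, *Idi1*, *Sqle*, *Fdps*, *Stard4*, *Scd1*, *Elovl6* and *Fads1*. Without the library labelled E3KO replicate 1, only *Insig1* was called, where 375 of 10489 genes were called. At an unadjusted p under 0.05 there were then 7 higher (*Cyp51*, *Insig1*, *Idi1*, *Sqle*, *Scd1*, *Hmgcs1* and *Sc5d*) and 1 lower (*Dhcr7*), against 8.37% and 14.2% of all genes.

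Against ECtrl alone limma called 0 of 33 genes, where 2.25% of all genes were called. At an unadjusted p under 0.05, 6 were higher and 1 lower (*Mylip*), against 6.02% and 14.1% of all genes. Against EfCtrl alone 0 were called, where 0.952% of all genes were called, and 6 were higher and 1 lower (the *Tm7sf2* locus) at an unadjusted p under 0.05, against 5.02% and 12.7%. *Cyp51*, *Insig1* and *Sqle* were higher at that level in both comparisons, which share the E3KO libraries. Their adjusted p-values by limma were 0.0807, 0.0614 and 0.232 against ECtrl and 0.108, 0.119 and 0.241 against EfCtrl. Without the library labelled E3KO replicate 1, *Insig1* was called against ECtrl (limma adjusted p = 0.0439), where 215 of 10489 genes were called. Against EfCtrl 0 of 33 were called, where 6 of 10489 genes were called. At an unadjusted p under 0.05, 8 were higher and 1 lower against ECtrl, beside 7.665% and 12.9% of all genes. Against EfCtrl 8 were higher and 2 lower, beside 6.25% and 11.5% of all genes. On leaving out E3KO replicate 2, *Cyp51* was called against ECtrl, where 91 of 10663 genes were called.

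The control groups gave the background difference. Between EfCtrl and ECtrl limma called 0 of 33 genes and 0 (0.0%) of all genes, and at an unadjusted p under 0.05 it found 1 higher and 0 lower, against 1.01% and 0.83% of all genes. The *Tm7sf2* locus was the gene entry concerned.

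The median log2 difference of the 33 genes was 0.19 against ECtrl, 0.08 against EfCtrl and 0.15 against the mean of the controls, and 0.04 between EfCtrl and ECtrl. Over all genes tested the medians were -0.08, -0.08, -0.08 and -0.01. Of the 33 differences from the mean of the controls, 23 were positive (69.7%) and 10 negative, where 38.2% of all genes were positive. Without the library labelled E3KO replicate 1 these counts were 24 and 9, and 40.3% of all genes. For the 15 sterol enzymes the median difference was 0.16 against ECtrl, 0.12 against EfCtrl and 0.07 against the mean of the controls. For the 8 fatty acid enzymes it was 0.27, 0.10 and 0.20. In 4 genes all E3KO libraries lay above all controls, where 5.18% of all genes did so, and in 0 genes below, where 11.5% did so.

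**Figure D1:**
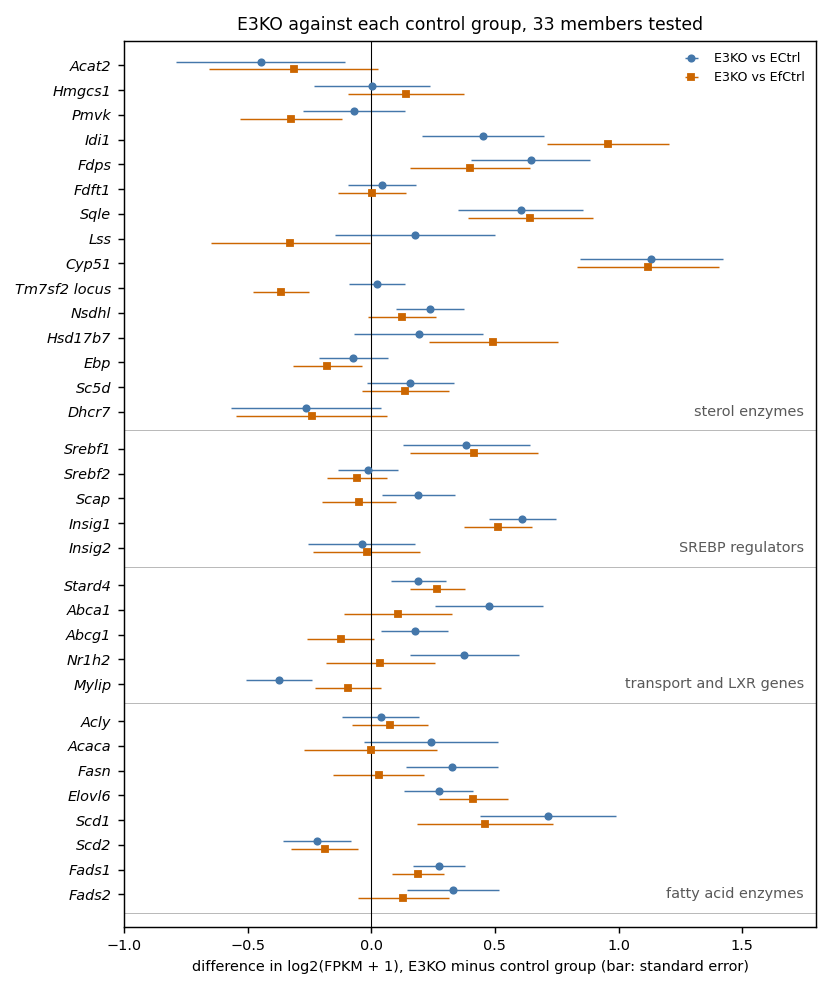
Difference in log2(FPKM + 1) between E3KO and ECtrl (circles) and between E3KO and EfCtrl (squares) for the 33 genes tested, grouped by role, with standard errors from limma as bars. *Cyp51* lies furthest to the right in both comparisons, at 1.13 and 1.12, and most other genes lie within 0.5 of 0.

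Cholesterol synthesis begins with the enzymes that make and phosphorylate mevalonate. *Acat2*, a cytosolic thiolase that joins acetyl-CoA units (chromosome 17, 12942890 to 12960747, mm10), had the most negative difference of the set, -0.38 ± 0.30 (SE; limma adjusted p = 0.457). It was 3.76, 2.38 and 2.02 FPKM in ECtrl, 2.13, 2.35 and 2.497 in EfCtrl and 0.472, 2.62 and 2.59 in E3KO. The low value is that of the library labelled E3KO replicate 1, and without that library the difference was 0.05. *Hmgcs1* was 12.1 to 17.1 FPKM in the controls and 9.93, 16.2 and 20.6 in E3KO, so the E3KO libraries lay on both sides of the controls. The kinases *Mvk* and *Pmvk* were low, at 0.654 to 2.00 and 1.11 to 2.65 FPKM in the controls, and E3KO overlapped both ranges.

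*Idi1*, the isomerase that makes the activated isoprene unit for chain growth (chromosome 13, 8885501 to 8892451), was 4.84, 3.16 and 3.49 FPKM in ECtrl, 2.37, 2.27 and 2.45 in EfCtrl and 4.61, 4.07 and 8.78 in E3KO. E3KO lay above EfCtrl in every library and overlapped ECtrl, whose own libraries were all above EfCtrl. The difference was 0.45 ± 0.24 (SE) from ECtrl and 0.96 ± 0.24 (SE) from EfCtrl, with limma adjusted p-values of 0.339 and 0.108. Without E3KO replicate 3 these differences were 0.16 and 0.67. *Fdps*, which makes farnesyl diphosphate, was 3.66 to 6.94 FPKM in the controls and 9.67, 5.62 and 6.47 in E3KO, with a difference from the mean of the controls of 0.52, or 0.32 without the library labelled E3KO replicate 1. *Fdft1*, the squalene synthase at the entry to the sterol branch, was 22.6 ± 2.44 FPKM in the controls (SD, n = 6) and 22.9 ± 2.37 in E3KO (SD, n = 3), a log2 difference of 0.02 ± 0.12 (SE).

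*Sqle*, the squalene epoxidase and a rate-limiting enzyme of the later steps (chromosome 15, 59315077 to 59331192), was 12.0, 11.5 and 8.10 FPKM in ECtrl, 10.9, 9.53 and 9.89 in EfCtrl and 12.4, 13.9 and 25.1 in E3KO. Every E3KO library was above every control, but replicate 1 only narrowly, and replicate 3 stood well above the rest. The difference from the mean of the controls was 0.62 ± 0.22 (SE; limma adjusted p = 0.14). It was 0.81 without the library labelled E3KO replicate 1 and 0.33 without E3KO replicate 3. *Lss*, which closes the sterol rings, was scattered in every group, from 0.865 to 3.96 FPKM in the controls and from 0.983 to 2.23 in E3KO.

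*Cyp51* (chromosome 5, 4081145 to 4104746, minus strand, overlapping *Akap9* in the annotation) showed the largest difference of the set. It was 4.54, 2.99 and 3.67 FPKM in ECtrl, 4.89, 3.15 and 3.35 in EfCtrl and 13.1, 5.54 and 10.8 in E3KO. All E3KO libraries were above all controls, with means of 9.82 ± 3.89 FPKM (SD, n = 3) and 3.77 ± 0.781 (SD, n = 6), and the E3KO libraries were themselves far apart. The limma adjusted p was 0.0436 against the mean of the controls. Without the library labelled E3KO replicate 1 the difference was 0.90 and the adjusted p 0.0911. The call was also lost on leaving out E3KO replicate 3 or any 1 of the 6 controls, and over all alternatives the adjusted p ran from 0.0247 to 0.135. Whether the reads were assigned by strand is not given in the sources used here, so reads of *Akap9* within the overlap could not be told apart.

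The enzymes after *Cyp51* gave no common direction. *Nsdhl* and *Hsd17b7*, which remove methyl groups from the sterol nucleus, had differences of 0.18 ± 0.12 and 0.34 ± 0.23 (SE) from the mean of the controls. *Ebp*, the sterol isomerase, had -0.13 ± 0.12 (SE), and *Sc5d*, a sterol desaturase, 0.15 ± 0.15 (SE). *Sc5d* was above all controls in E3KO replicates 2 and 3 (32.8 and 38.4 FPKM, against 26.3 to 30.9) and below them in replicate 1 (23.2).

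*Dhcr7*, the reductase of the final step (chromosome 7, 143823145 to 143848410), was 7.42, 4.12 and 8.46 FPKM in ECtrl, 6.76, 5.76 and 6.42 in EfCtrl and 8.53, 4.15 and 3.79 in E3KO. Replicate 1 was the highest of all 9 libraries and replicate 3 the lowest, and the difference was -0.25 ± 0.26 (SE; limma adjusted p = 0.581). Without the library labelled E3KO replicate 1 it was -0.57 (adjusted p = 0.186). The values listed for *Tm7sf2*, a sterol reductase, cover a locus shared with *Vps51* and *Zfpl1* and are a mean over those symbols, so they are not a measure of *Tm7sf2* alone. They were 4.69 to 5.50 FPKM in ECtrl, 6.68 to 7.59 in EfCtrl and 4.63 to 5.81 in E3KO. EfCtrl stood apart from ECtrl and from E3KO at this locus.

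**Figure D2:**
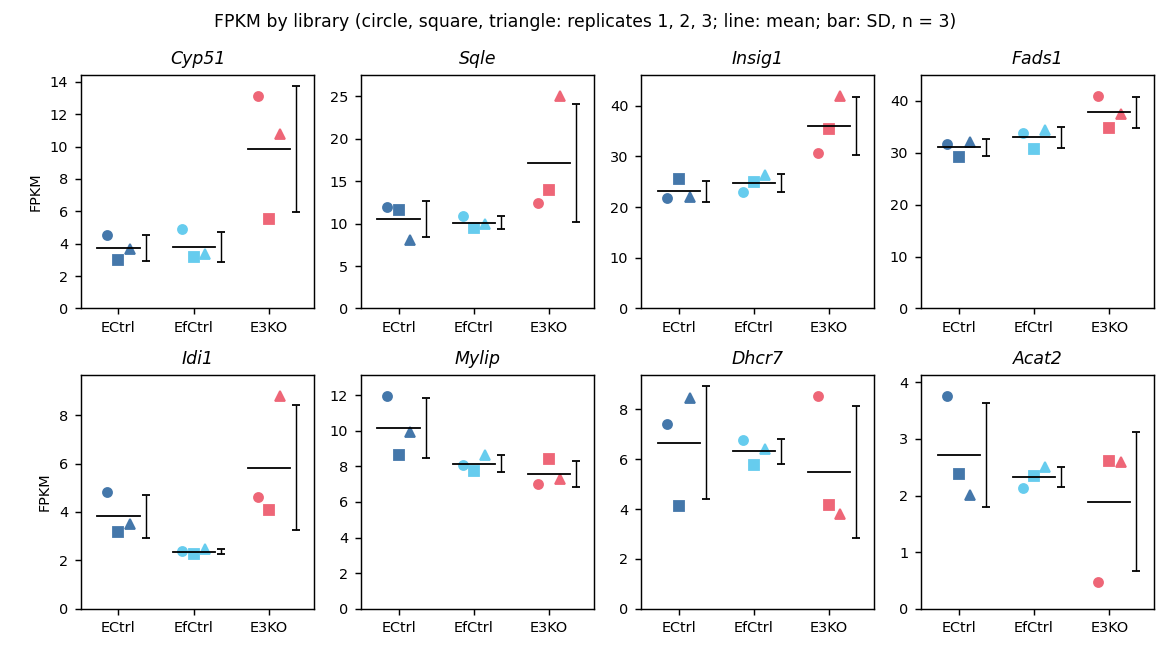
FPKM of 8 genes in each library on linear axes from 0, with replicates 1, 2 and 3 as circles, squares and triangles, group means as lines and SD (n = 3) as bars. For *Cyp51*, *Sqle*, *Insig1* and *Fads1* all E3KO points lie above all control points. For *Idi1*, *Mylip*, *Dhcr7* and *Acat2* the groups overlap.

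The SREBP regulators differed from one another. *Insig1* (chromosome 5, 28071363 to 28078662) was 21.9, 25.5 and 21.9 FPKM in ECtrl, 23.0, 24.9 and 26.4 in EfCtrl and 30.7, 35.3 and 42.0 in E3KO. The E3KO libraries were all above the controls, with means of 36.002 ± 5.68 FPKM (SD, n = 3) and 23.9 ± 1.93 (SD, n = 6). The limma adjusted p was 0.0391, and 0.0298 without the library labelled E3KO replicate 1, where the difference was 0.67. The call was lost on leaving out E3KO replicate 2 or 3, ECtrl replicate 1 or 3, or any EfCtrl library, with adjusted p-values up to 0.126 over all alternatives.

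*Insig2*, the paralogue of *Insig1*, was 28.9 to 36.9 FPKM in the controls and 24.4, 44.6 and 27.0 in E3KO, so replicate 2 was above and the others below. *Srebf2*, which encodes the SREBP of the sterol genes, was 8.89 ± 0.796 FPKM in the controls (SD, n = 6) and 8.65 ± 0.747 in E3KO (SD, n = 3), a difference of -0.04 ± 0.11 (SE). *Srebf1*, which encodes the SREBP of the fatty acid genes, was 3.09 to 6.36 FPKM in the controls and 7.16, 4.55 and 5.06 in E3KO, a difference of 0.40 ± 0.22 (SE; limma adjusted p = 0.31). *Scap* differed by 0.07 ± 0.13 (SE). FPKM gives the transcript and not the cleavage of SREBP, which is where these proteins are controlled.

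Among the transport and LXR genes limma called 0 of 5 against the mean of the controls, where 4.8% of all genes were called. At an unadjusted p under 0.05, 1 was higher (*Stard4*) and 0 lower, against 6.93% and 16.9% of all genes. *Stard4*, which moves sterol between membranes, was 21.4 to 24.9 FPKM in the controls and 26.5, 24.8 and 30.01 in E3KO. *Mylip*, an LXR-induced ubiquitin ligase that lowers lipoprotein uptake (chromosome 13, 45389742 to 45412019), was 11.9, 8.61 and 9.91 FPKM in ECtrl, 8.08, 7.72 and 8.66 in EfCtrl and 7.02, 8.40 and 7.31 in E3KO. E3KO was below ECtrl in every library but overlapped EfCtrl, with differences of -0.37 ± 0.13 (SE) and -0.10 ± 0.13 (SE) and limma adjusted p-values of 0.181 and 0.725.

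*Abca1*, the cholesterol efflux pump, had the highest FPKM of the set, 147 ± 33.3 in the controls (SD, n = 6) and 177 ± 22.8 in E3KO (SD, n = 3). ECtrl replicate 1 was the lowest at 90.9, and the difference was 0.48 ± 0.22 (SE) from ECtrl and 0.11 ± 0.22 (SE) from EfCtrl. *Abcg1*, a second efflux pump, lay at 0.17 ± 0.14 (SE) from ECtrl and -0.12 ± 0.14 (SE) from EfCtrl, and *Nr1h2*, which encodes LXRβ, at 0.38 ± 0.22 and 0.04 ± 0.22 (SE). For these 3 genes the difference from ECtrl was larger than that from EfCtrl. The gap is the difference between the controls, 0.37, 0.30 and 0.34, which did not pass the test (limma adjusted p = 1 for each).

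The enzymes of fatty acid synthesis had 7 positive and 1 negative difference from the mean of the controls, where 38.2% of all genes were positive, and 6 and 2 without the library labelled E3KO replicate 1. By limma 0 of 8 were called, where 4.8% of all genes were called. At an unadjusted p under 0.05, 3 were higher and 0 lower, against 6.93% and 16.9% of all genes. Without that library 1 (*Scd1*) was higher and 0 lower, against 8.37% and 14.2%. *Acly*, which supplies acetyl-CoA from citrate, was abundant and differed by 0.06 ± 0.13 (SE). *Acaca* and *Fasn*, the carboxylase and synthase at the centre of the route, differed by 0.12 ± 0.23 and 0.18 ± 0.16 (SE). *Acaca* was 13.0 FPKM in the library labelled E3KO replicate 1 and 6.13 and 6.31 in replicates 2 and 3, against 4.99 to 8.41 in the controls, so only that library was high. *Acss2*, which activates acetate, was 0.487 to 1.18 FPKM in the controls and 0, 0.658 and 1.21 in E3KO.

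The elongase *Elovl6* was 2.18 to 3.44 FPKM in the controls and 4.28, 3.40 and 3.27 in E3KO (0.34 ± 0.12, SE; limma adjusted p = 0.143). *Scd1* and *Scd2* both encode desaturases that make monounsaturated fatty acids, but *Scd2* was the main form here, with 55.5 ± 2.55 FPKM in the controls against 2.01 ± 0.779 for *Scd1* (SD, n = 6). *Scd1* was 0.924 to 2.96 FPKM in the controls and 2.64, 3.203 and 4.52 in E3KO, and *Scd2* was 52.3 to 59.1 in the controls and 40.5, 47.2 and 57.6 in E3KO. Their differences were 0.59 ± 0.24 and -0.20 ± 0.12 (SE), with limma adjusted p-values of 0.186 and 0.326, so neither passed.

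*Fads1*, the desaturase that makes arachidonate (chromosome 19, 10182888 to 10196870), was 31.8, 29.2 and 32.1 FPKM in ECtrl, 33.8, 30.7 and 34.4 in EfCtrl and 41.0, 34.8 and 37.5 in E3KO. The groups did not overlap, yet the lowest E3KO library was close to the highest control, and the difference was 0.23 ± 0.09 (SE; limma adjusted p = 0.178). Its neighbour *Fads2* was 9.08 to 13.4 FPKM in the controls and 11.01, 11.6 and 18.0 in E3KO, with replicate 3 alone above the controls.

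**Figure D3:**
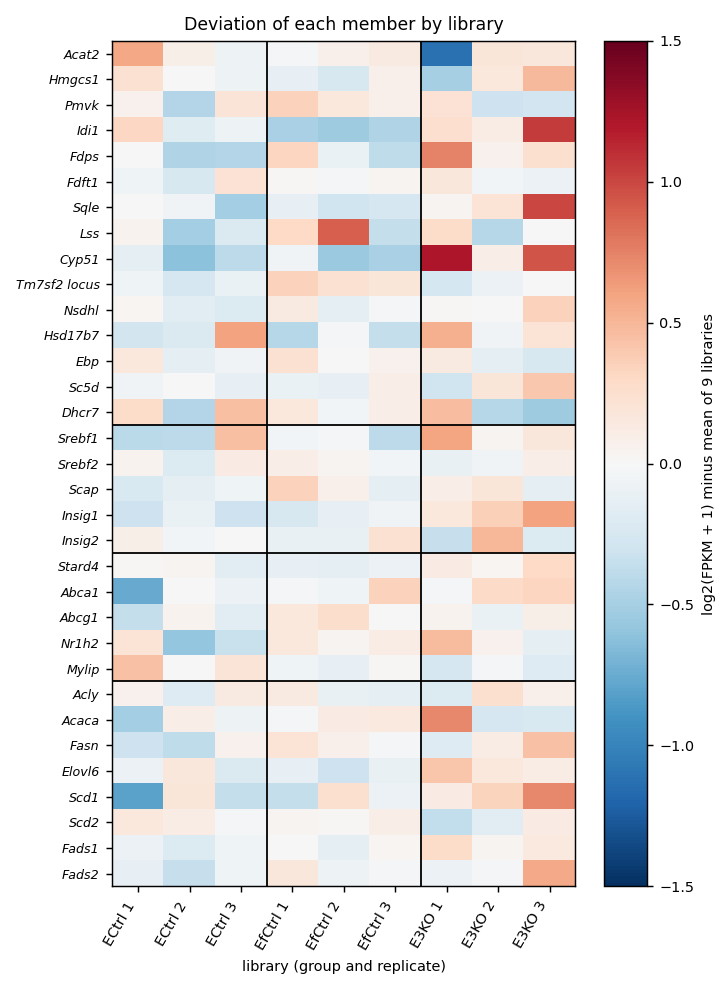
Deviation of log2(FPKM + 1) from the mean over the 9 libraries, in red where higher and blue where lower, for the 33 genes (vertical axis, grouped by role as in the plot of differences) and the libraries (horizontal axis). The E3KO columns are not alike: *Acaca* is high in replicate 1 alone, *Cyp51* in replicates 1 and 3, and *Sqle* and *Idi1* mainly in replicate 3.

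Because the E3KO libraries disagreed for many genes, the mean deviation of each gene group was taken in each library, as a description with no test. For the sterol enzymes it was 0.13, -0.03 and 0.25 in E3KO, 0.07, -0.24 and -0.05 in ECtrl and 0.04, -0.05 and -0.10 in EfCtrl. E3KO replicate 2 lay within the controls, so the sterol enzymes as a group were high in only 2 of 3 E3KO libraries. For the fatty acid enzymes the values were 0.08, 0.06 and 0.25 in E3KO and -0.21 to 0.01 in the controls, without overlap. The SREBP regulators were at 0.08, 0.21 and 0.10 in E3KO and -0.17 to 0.04 in the controls, and *Insig1* is 1 of these 5 genes. Over all genes tested the E3KO libraries were at -0.12, -0.02 and -0.03, and the controls at -0.02 to 0.06.

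Among the 15 sterol enzymes, the highest of the 9 libraries was E3KO replicate 3 for 5 genes, the library labelled E3KO replicate 1 for 3 and E3KO replicate 2 for 0. Among the 8 fatty acid enzymes these counts were 3, 3 and 1. The matching shares over all genes were not taken. Without the library labelled E3KO replicate 1, the median difference from the mean of the controls was 0.19 for the sterol enzymes and 0.21 for the fatty acid enzymes. The genes in which E3KO replicates 2 and 3 lay above all controls were 6, namely *Sqle*, *Cyp51*, *Sc5d*, *Insig1*, *Scd1* and *Fads1*. This condition is easier to meet with fewer E3KO libraries, and its share over all genes was not taken. On leaving out E3KO replicate 3 instead, the sterol median was -0.00712.

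**Figure D4:**
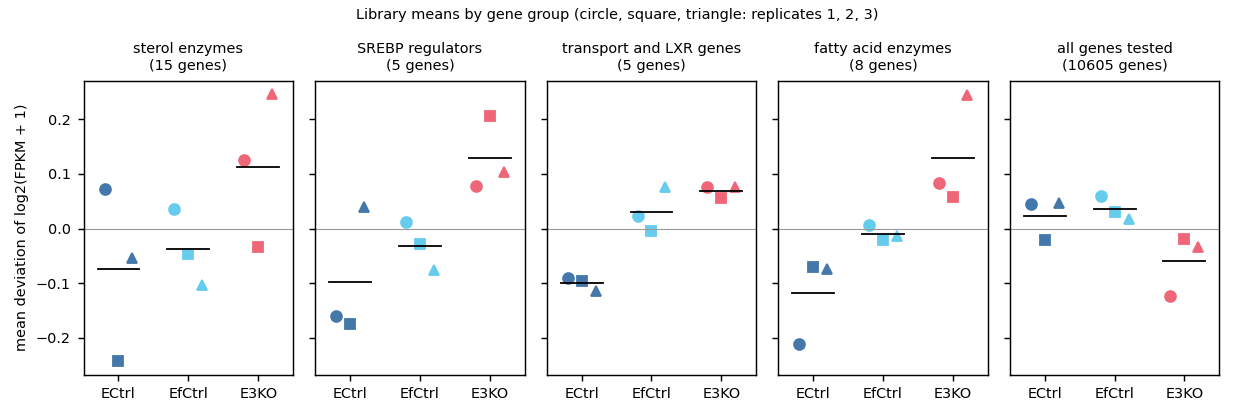
Mean deviation of log2(FPKM + 1) in each library for the 4 gene groups and for all genes tested, with replicates as circles, squares and triangles and group means as lines. E3KO lies above all controls for the SREBP regulators and the fatty acid enzymes, overlaps them for the sterol enzymes and the transport genes, and overlaps them at the lower end for all genes.

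Other genes of these pathways were counted from lists of the same kind. Of 20 other sterol genes 18 were tested, and against the mean of the controls limma called 1 higher and 0 lower, where 1.54% and 3.26% of all genes were called. It was *Apoe*, the lipoprotein component and LXR target, at 0.868, 1.32 and 1.64 FPKM in ECtrl, 2.03, 2.10 and 1.65 in EfCtrl and 3.07, 4.38 and 5.90 in E3KO. The groups did not overlap, the difference was 1.06 ± 0.18 (SE) and the adjusted p 0.0217, or 0.0235 without the library labelled E3KO replicate 1. *Apoe* reached the FPKM minimum only through E3KO, and with no minimum its adjusted p was 0.0418. The call was lost on leaving out E3KO replicate 2 or 3 or EfCtrl replicate 1 or 3, with limma adjusted p-values up to 0.0817 over all alternatives. Macrophages express *Apoe* and the efflux pumps strongly. Of 8 leukocyte and macrophage markers 8 were found, and their summed FPKM, mostly *Lyz2*, was 71.8 to 250 in the controls and 191, 288 and 310 in E3KO. *Ptprc* was 0.0919 to 1.23 in the controls and 0.419, 0.961 and 1.59 in E3KO. *Cd68* was 12.8 to 26.8 and 17.6, 40.3 and 50.6, and *Itgam* was 0.156 to 1.30 and 1.98, 1.66 and 1.96. *Emr1* was 0.198 to 1.42 in the controls and 0.0493, 1.03 and 1.07 in E3KO. *Csf1r* was 0.406 to 2.26 and 0.737, 1.40 and 2.06. No E3KO library was above the control range for *Emr1* or *Csf1r*, so the markers did not all rise. Of the 8 markers 4 were tested and limma called 0. The part of these markers in the values of *Apoe*, *Abca1* and *Pparg*, described next, was not tested. In bulk RNA fewer cells of a type and less RNA per cell cannot be told apart.

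Of 29 other fatty acid genes 25 were tested, and limma called 2 higher and 1 lower against the mean of the controls, beside the same 1.54% and 3.26% of all genes. *Lpin1*, a phosphatidate phosphatase, was 5.61 to 8.04 FPKM in the controls and 9.63, 9.40 and 10.7 in E3KO (0.52 ± 0.11, SE; adjusted p = 0.0417). *Pparg*, a nuclear receptor of lipid storage and uptake, was 8.83 to 12.9 FPKM in the controls and 17.1, 16.4 and 15.97 in E3KO (0.54 ± 0.12, SE; adjusted p = 0.0495). *Acadm*, which oxidises medium-chain fatty acids, was 26.4 to 42.5 FPKM in the controls and 13.7, 22.3 and 19.6 in E3KO (-0.81 ± 0.18, SE; adjusted p = 0.0476). None of these 3 groups of values overlapped, but without the library labelled E3KO replicate 1 the limma adjusted p-values were 0.0642, 0.0911 and 0.0888. On leaving out any 1 library the calls of *Lpin1* and *Pparg* were lost except without ECtrl replicate 3, and that of *Acadm* was lost each time, with adjusted p-values up to 0.135, 0.127 and 0.118 over all alternatives. Of adipocyte markers 4 of 4 were found, and their summed FPKM was at most 0.18 in any library.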

How the data were processed

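RNA-seq was performed on 9 MLEC libraries, 3 per group as the labels give them. The authors aligned paired 40-base reads to mm10 with TopHat2 and ran Cufflinks, Cuffmerge and Cuffdiff. The deposited values used here are FPKM of single libraries, which the authors list by gene symbol. Of 37104 loci, 3749 that share a symbol and 2 without library values were left out. Where an entry names several symbols its value is a mean over them. Deposited fold changes, p-values and q-values of the authors' comparisons were not used. Fragment numbers cannot be read from FPKM, so counting error was not estimated. Steps between low values gave rough relative depths of 1 to 1.53 times ECtrl replicate 2, with broad spread. Coordinates are mm10, with 1 added to each deposited start.

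The members and gene lists were chosen with earlier results of these data known. The genes named are all members, with library values in full for those called and for the 3 largest and 3 smallest differences, and other pathway genes only where called. *Fads1* and others given by library outside this rule were chosen after their values were seen.

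The authors' Cuffdiff test needs reads, so log2(FPKM + 1) of all 9 libraries was modelled by group in limma 3.58.1 under R 4.3.3. Genes averaging at least 2 FPKM in any group entered, with Benjamini-Hochberg adjustment. The fitting script was checked on simulated data. Each library is a separate isolation of cells. Alternatives covered the pseudocount, the FPKM minimum, centring, quantile normalization, a mean-variance trend, array weights, the replicate number as a block, fits on 2 groups and omission of each library. Centring with E3KO replicate 1 left out was added after seeing the data. Tables were handled in pandas 2.3.3 (Python 3.11.15).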

Additional observations from a re-analysis of the deposited data

How the results depend on the processing

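The counts of genes called were the least stable results. Against the mean of the controls 2 of the 33 genes were called, beside 509 of all 10605 genes. With a pseudocount of 0.1 it was 1 (*Insig1*), beside 411 of 10605. With no FPKM minimum (more genes tested) it was 0, beside 351 of 20429. With array weights it was 4 (*Cyp51*, *Idi1*, *Insig1* and *Sqle*), beside 1333 of 10605. With each library centred and E3KO replicate 1 left out it was 1 (*Insig1*), beside 329 of 10489. Against ECtrl 0 became 1 (*Insig1*) with a mean-variance trend, beside 257 of 10605 genes, and with array weights, beside 460 of 10605. It was also 1 (*Insig1*) without E3KO replicate 1, beside 215 of 10489 genes, or 202 with centring as well. Without E3KO replicate 2 it was 1 (*Cyp51*), beside 91 of 10663. Against EfCtrl 0 became 4 with array weights, beside 1238 of 10605 genes. Those weights gave the library labelled E3KO replicate 1 a weight of 0.133. Leaving out 1 library at a time, the count was 0 to 1 against ECtrl, 0 against EfCtrl and 0 to 1 against the mean of the controls. *Cyp51* and *Insig1* stayed positive in all of these fits.

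The medians of both enzyme groups were positive in E3KO except that the sterol median turned negative, against EfCtrl and against the mean of the controls, without E3KO replicate 3. Leaving out 1 library, those of the sterol enzymes were 0.03 to 0.17 against ECtrl, -0.0177 to 0.17 against EfCtrl and -0.01 to 0.19 against the mean of the controls, and those of the fatty acid enzymes 0.20 to 0.33, 0.06 to 0.19 and 0.14 to 0.29. With array weights the sterol median was 0.23 against the mean of the controls and the fatty acid median 0.21 against EfCtrl. With centring and without E3KO replicate 1 these were 0.25 and 0.25. Between EfCtrl and ECtrl, leaving out 1 library gave 0.02 to 0.07 and 0.04 to 0.17. Genes with E3KO above all controls numbered 4 to 6, and below 0 to 2, with no share over all genes taken. The library mean of E3KO less that of the controls was 0.10 to 0.24 for sterol and 0.13 to 0.23 for fatty acid enzymes.

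*Acat2* turned positive against EfCtrl with quantile normalization (0.0238), array weights (0.0585), without E3KO replicate 1 (0.116) and with centring as well (0.173), and ran from -0.533 to 0.116 on leaving out 1 library. Against the mean of the controls it was 0.0108 with array weights, 0.0490 without E3KO replicate 1 and 0.11 with centring as well, and ran from -0.600 to 0.0490 on leaving out 1 library. Against ECtrl it was 0.0467 with centring without E3KO replicate 1. *Mylip* against EfCtrl was 0.00423 with quantile normalization and 0.00784 with centring without E3KO replicate 1. The cause was not tested.

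Same-numbered libraries deviated from their group means with correlations of -0.04 to 0.12, against -0.21 to 0.08 for pairs with different numbers. With 3 libraries per group, these correlations cannot show whether same-numbered libraries shared a preparation. With the replicate number as a block, 1 of the 33 genes (*Cyp51*) was called against the mean of the controls and 202 of all genes in place of 509. Against ECtrl and EfCtrl the block left 1 and 1 of all genes in place of 239 and 101. Over all genes, array weights gave 460, 1238 and 1333 against ECtrl, EfCtrl and the mean of the controls, no minimum gave 95, 17 and 351, and the fits on 2 groups gave 0 against ECtrl and 70 against EfCtrl. Centring without E3KO replicate 1 gave 202, 11 and 329. Leaving out 1 library gave 0 to 215, 1 to 218 and 9 to 408, and 0 to 4 between the controls.

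With 3 libraries per group, small differences were not resolved. In the library labelled E3KO replicate 1, *Mapk8* was above every control while *Mapk9* was below every control.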
